A study of Homo sapiens with 4 samples.

Results

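The comparison described here is of U937 cells given Sonazoid together with ultrasound against U937 cells given ultrasound only, that is, of the Sonazoid added to cells that were all sonicated. It rests on 2 of the 4 arrays of the series, 1 array a side, so every difference is between single arrays and is given with no test, p-value or standard error. Its members were all genes named by exactly 1 symbol on the Affymetrix Human Genome U133 Plus 2.0 array. Of 19775 such genes, 13151 had a signal above the floor on at least 1 of the 2 arrays and are called measured. The floor was the median of all values of the 4 arrays, a signal of 23.8. Of the measured genes 7613 are called bright, with a mean signal over the 4 arrays above 151, the 75th percentile of all values.

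U937 is an established line of human monocyte-like cells from a histiocytic lymphoma. The combination array held cells given Sonazoid at 0.05% and 1 min of ultrasound at 0.3 W/cm2. The ultrasound-only array held cells given the same ultrasound and no Sonazoid. The other 2 arrays held cells given 0.05% Sonazoid and no ultrasound, and untreated control cells. The 3 treated cultures were incubated for 3 h before collection, and that of the control cells was not given in the sources used here. Nothing in the labels tells whether the 4 cultures were grown and processed together.

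Sonazoid is a contrast agent of gas microbubbles, filled with perflubutane and coated with a phospholipid shell. In an ultrasound field such bubbles swell, shrink and collapse, a process called cavitation, and bubbles close to a cell can open transient pores in its membrane (sonoporation). Cells that are injured this way take up calcium, patch the membrane with vesicles and annexins, and switch on immediate early and stress genes. Monocytes and macrophages can also engulf the bubbles themselves, and the scavenging cells of the liver are known for doing so.

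The signals below are scaled probe set intensities, given in the order control, Sonazoid only, ultrasound only and combination. A difference is the log2 signal of the combination minus that of ultrasound only, so a negative value is lower with added Sonazoid. Each gene is represented by its brightest probe set. The number of arrays limits the precision of every value. A lower signal could stand for less RNA per cell or for fewer of the cells that hold it, and bulk arrays cannot tell these apart.

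The promoters of 4 genes that the results turn on are shown here first, as RefSeq places their start sites on GRCh38.p14. JUNB and ZYX were lower with added Sonazoid, and TUBE1 and NPL were the bright genes farthest above ultrasound only. JUNB is the AP-1 subunit whose signal on the combination array matched that of the arrays without ultrasound. ZYX, which encodes the focal adhesion protein zyxin, was lower in both of its probe sets. TUBE1 encodes epsilon-tubulin, a protein of the centrosome, and NPL the lyase that breaks down sialic acid. The windows run from 250 bases before to 50 bases after the start, at chr19:12791236-12791535 on the plus strand for JUNB, chr7:143381095-143381394 on the plus strand for ZYX, chr6:112087433-112087732 on the minus strand for TUBE1 and chr1:182789523-182789822 on the plus strand for NPL. Capitals mark GC boxes, the letters GGGCGG on either strand.
JUNB: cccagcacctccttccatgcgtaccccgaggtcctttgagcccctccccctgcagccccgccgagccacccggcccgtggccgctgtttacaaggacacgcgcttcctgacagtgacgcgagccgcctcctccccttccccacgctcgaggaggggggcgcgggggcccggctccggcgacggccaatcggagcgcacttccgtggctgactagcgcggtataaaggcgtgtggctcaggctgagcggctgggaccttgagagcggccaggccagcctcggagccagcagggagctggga
ZYX: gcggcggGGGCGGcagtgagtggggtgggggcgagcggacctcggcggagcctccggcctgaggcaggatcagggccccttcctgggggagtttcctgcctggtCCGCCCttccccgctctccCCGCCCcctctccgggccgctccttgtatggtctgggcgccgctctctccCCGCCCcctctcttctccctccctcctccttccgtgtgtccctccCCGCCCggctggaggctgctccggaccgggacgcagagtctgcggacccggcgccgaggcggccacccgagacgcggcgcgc
TUBE1: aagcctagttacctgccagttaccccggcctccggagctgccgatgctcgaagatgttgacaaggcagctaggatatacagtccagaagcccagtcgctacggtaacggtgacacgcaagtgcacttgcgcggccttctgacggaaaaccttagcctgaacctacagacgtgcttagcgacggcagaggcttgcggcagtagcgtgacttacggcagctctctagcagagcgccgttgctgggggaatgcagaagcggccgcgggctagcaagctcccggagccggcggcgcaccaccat
NPL: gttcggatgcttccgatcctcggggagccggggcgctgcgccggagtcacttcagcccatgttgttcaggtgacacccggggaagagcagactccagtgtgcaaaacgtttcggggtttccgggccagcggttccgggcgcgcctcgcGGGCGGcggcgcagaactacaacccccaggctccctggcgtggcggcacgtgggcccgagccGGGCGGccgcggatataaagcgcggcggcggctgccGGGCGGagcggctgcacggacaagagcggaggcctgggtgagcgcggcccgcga
The window of ZYX held 5 GC boxes and that of NPL 3, while those of JUNB and TUBE1 held 0. The letters TATAAA, searched on both strands, were found 1 time in JUNB and 1 time in NPL, and not in these windows of ZYX and TUBE1.

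The arrays were alike in scale after 1 factor each, between 0.923 and 1.07, had been applied. The combination array had the highest median of the deposited values (26.4) and the ultrasound-only array one of the lowest (22.6). Without the factors the difference of a given probe set well above the floor is 0.22 higher on the log2 scale. This is stated here once and returned to only where it turns a result. The shift can be smaller at or near the floor, and it can differ where another set becomes the brightest of its gene. Of the U937 markers on the table LYZ, ELANE, AZU1, CSF3R, CD4, SPI1 and VIM lay above the floor on all 4 arrays, and MPO on 1. CD33 and CD68 were not analysed here. Of other cell types' markers CD3D, LCK, EPCAM, CDH1 and VWF lay above the floor on 0 arrays. KRT8 did so on 3 arrays, at up to 59.2, CD3E, PF4 and DCN on 2, and CD2, MS4A1 and KRT19 on 1. NKG7, a granule gene of cytotoxic lymphocytes, stood between 2771 and 3197, and PECAM1, an adhesion molecule of endothelium and leukocytes, between 648 and 810. CD79A, PAX5, HBB and COL1A1 were also above the floor on the 4 arrays, with signals between 34.9 and 131.

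Signals of the combination and of ultrasound only lay close to each other. Over the bright genes the median difference was -0.01 with an SD of 0.23, and the middle 90% of genes lay between -0.41 and 0.33. Split into 10 equal bins of signal, the bright genes had an SD of 0.33 in the dimmest bin and 0.13 in the brightest, and it was 0.48 over the 5538 dim measured genes. The same spread for Sonazoid only against control was 0.18 over the bright genes. With no replicate array the part of this spread that repeat arrays of 1 condition would show was not measured.

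With added Sonazoid 92 of the 13151 measured genes (0.7%) were higher by 2-fold or more, and 152 (1.16%) were lower by as much. At 1.5-fold 574 (4.36%) were higher and 773 (5.88%) lower. Among bright genes the counts were far smaller. Only TUBE1 and NPL, 0.0263% of the bright genes, were 2-fold or more above ultrasound only, and CACNG4, NEIL2 and ZNF142, 0.0394%, as far below. At 1.5-fold 59 bright genes (0.775%) were higher and 120 (1.58%) lower. The excess of lower genes depended on the scaling. Of the bright genes past 1.5-fold 67.0% were lower here and 60.1% under quantile normalisation. Without any scaling the share was 9.06%. Of the measured genes past 2-fold 62.3% were lower here and 27.8% with the values as deposited.

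**Figure D1:**
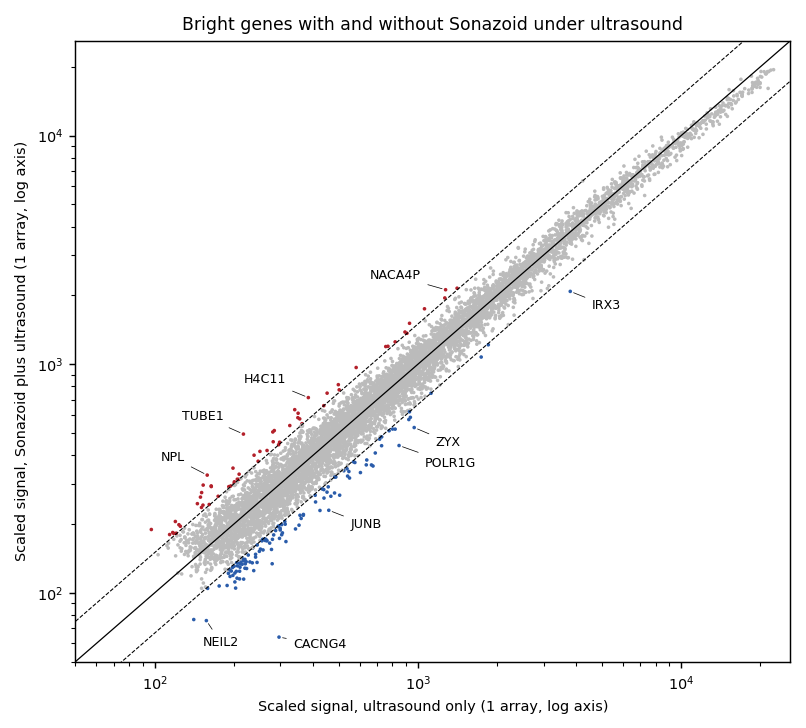
Scaled signals of the 7613 bright genes with ultrasound only (x axis, log scale) and with Sonazoid plus ultrasound (y axis, log scale), 1 array each. The solid line marks equal signals and the dashed lines 1.5-fold; the 59 genes above the band are red, the 120 below it blue, and most of them lie at the dim end of the plot.

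The 15 named lower bright genes are given by the role of their product, an arrangement for reading and not a tested group. JUNB, a subunit of the AP-1 transcription factor, stood at 224, 237, 458 and 230, a difference of -0.997. The ultrasound-only array was the high one, and the other 3 lay between 224 and 237. POLR1G, a subunit of RNA polymerase I, which transcribes the ribosomal RNA genes, stood at 624, 667, 848 and 441 (-0.94). Here ultrasound only was the highest and the combination the lowest of the 4. ZC3H3, a zinc finger protein of mRNA export, stood at 156, 161, 218 and 115 (-0.92), in the same order. The homeobox gene IRX3 was the brightest of the 15 genes farthest below, at 3820, 4181, 3790 and 2082 (-0.86). Its combination array alone was low. MEF2A, a transcription factor of muscle and myeloid cells, stood at 264, 246, 353 and 198 (-0.84), and its 3 other probe sets were between -0.28 and -0.03. SREBF1, which encodes the lipid-synthesis regulator SREBP-1, stood at 244, 224, 278 and 155 (-0.84).

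ZYX, the focal adhesion protein, is given with the named lower genes whose products act at membranes. It stood at 751, 677, 968 and 528 (-0.87), and its other probe set at 575, 679, 816 and 422 (-0.95). Both sets put ultrasound only highest and the combination lowest. RAB5B, a small GTPase of early endosomes, stood at 204, 172, 203 and 105 (-0.95), with the combination alone low. ARF5, a small GTPase of the Golgi, stood at 410, 414, 605 and 336 (-0.85), with ultrasound only high. TTYH3, of a family of volume-regulated anion channels, stood at 356, 356, 504 and 267 (-0.92). TMEM38A, a cation channel of the endoplasmic reticulum, stood at 200, 170, 245 and 136 (-0.85). TXNDC11, a thioredoxin-domain protein of the same organelle, stood at 273, 258, 343 and 190 (-0.85).

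The other named lower genes were of mixed kind. CACNG4, an auxiliary subunit of calcium channels and AMPA receptors, stood at 215, 94.8, 297 and 64.0 and was the bright gene farthest from 0, at -2.21. It was low on both arrays with Sonazoid, since Sonazoid only lay -1.18 from control. NEIL2, a DNA glycosylase of base excision repair, stood at 216, 201, 157 and 75.6 (-1.06). OGDH, a dehydrogenase of the citric acid cycle, stood at 209, 169, 210 and 115 (-0.87), with its 2 other probe sets at -0.25 and -0.22. ZNF142, the remaining bright gene at 2-fold, was chosen after its values were seen. It stood at 214, 231, 279 and 134 (-1.06), but its other probe set lay 0.35 above ultrasound only.

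Of the higher bright genes TUBE1 stood farthest out, at 315, 318, 217 and 495, a 2.28-fold difference (1.19). The combination was the highest of the 4 arrays and ultrasound only the lowest. NPL stood at 193, 197, 158 and 327 (2.07-fold, 1.05), with the combination alone high. A similarly bright other set was nearly level, at 203, 221, 195 and 212 (0.12), and a dim one was at least 0.40 higher, so the mean of its sets was 0.52. SNAPC4, a subunit of the complex that starts small nuclear RNA transcription, stood at 136, 194, 97.1 and 189 (0.96), with 0.29 in its other set. PRMT9, an arginine methyltransferase that acts on a splicing factor, stood at 256, 263, 153 and 296 (0.95). In both genes ultrasound only was the lowest array. In SNAPC4 control lay between it and the 2 arrays with Sonazoid.

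SEC24A, a cargo adaptor of the COPII coat that buds vesicles from the endoplasmic reticulum, stood at 432, 489, 285 and 513 (0.85). Its other probe sets were 0.38 and, as a lower bound, at least 0.49 higher. USP24, a deubiquitinase, stood at 303, 385, 281 and 505 (0.85), but its 2 other sets were nearly level (both 0.08). S100A9, a calcium-binding protein abundant in mature monocytes and neutrophils, stood at 193, 207, 164 and 292 (0.83). The combination was the highest of the 4 arrays for these 3 genes. MINPP1, a phosphatase of inositol phosphates, stood at 375, 332, 198 and 351 (0.82), with ultrasound only low. CIC, a transcriptional repressor of ERK target genes, stood at 183, 232, 149 and 262 (0.81). DMXL1, a partner of the vacuolar proton pump, stood at 148, 177, 120 and 205 (0.78).

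Histone and noncoding transcripts were also among these 15 genes. H4C11, 1 of the many histone H4 genes that encode the same protein, stood at 293, 312, 383 and 714 (0.90). FTX, a long noncoding RNA of the X-inactivation centre, stood at 177, 185, 164 and 293 (0.84), with another set 0.53 higher. LOC100190986, an uncharacterised locus, stood at 232, 174, 145 and 245 (0.76). PMS2P5 and RPL7AP10 are pseudogene copies of a mismatch repair gene and of a ribosomal protein gene, and share sequence with their parents. PMS2P5 stood at 398, 418, 340 and 633 (0.89), and RPL7AP10 at 424, 498, 351 and 610 (0.80). For both the combination was the highest array, and their signals may hold RNA of other copies.

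**Figure D2:**
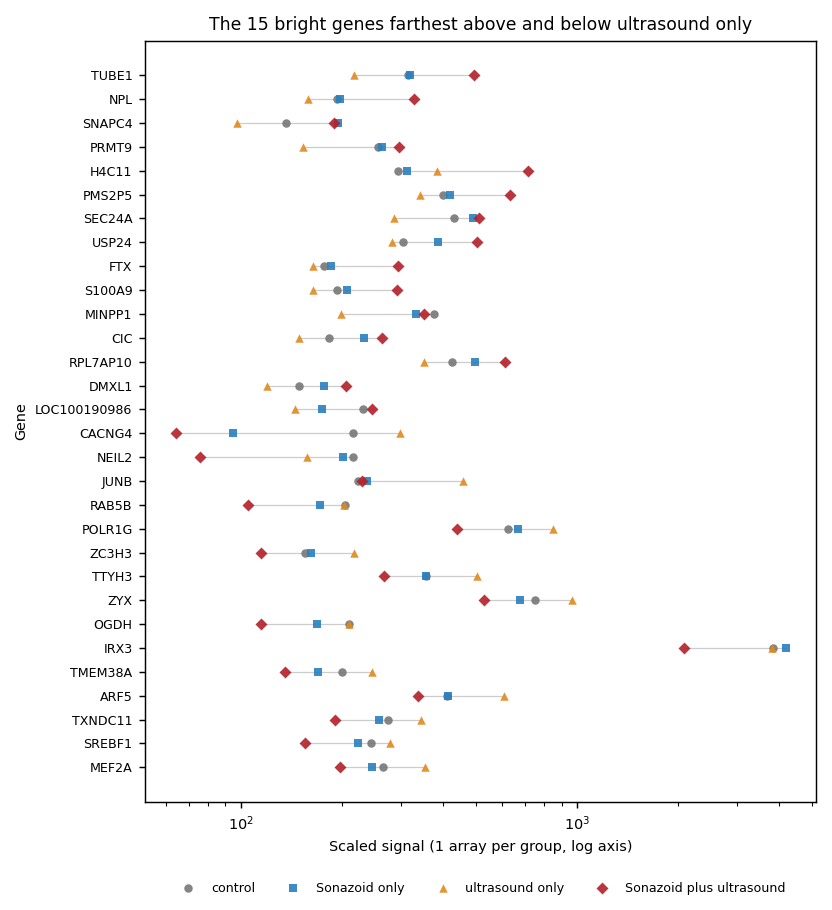
Scaled signals (x axis, log scale) on the 4 arrays, 1 per group, of the 15 bright genes farthest above and the 15 farthest below ultrasound only with no other probe set of opposite sign. Most of the lower genes, such as JUNB (458 with ultrasound only, 230 with the combination), have the ultrasound-only triangle on the right of the other 3 points, and most of the higher genes have it on the left.

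Over the 120 lower bright genes the ultrasound-only array was the highest of the 4 in 100, and the combination array the lowest in 97. Over the 59 higher genes ultrasound only was the lowest in 49, and the combination the highest in 45. These orders follow in part from the choice of genes by the same 2 arrays, and are no separate result. The same orders over all bright genes are not given here. A few bright genes past 1.5-fold, chosen after their values were seen, show the range. TPSB2, a mast cell tryptase, stood at 1051, 935, 1739 and 1075 (-0.69), where ultrasound only alone was high. SMC3, a subunit of the cohesin ring, stood at 2266, 2430, 1408 and 2150 (0.61), where ultrasound only alone was low. NDUFB7, a subunit of respiratory complex I, stood at 1499, 1399, 1059 and 1747 (0.72), with ultrasound only lowest and the combination highest.

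Probe sets of the same gene share the RNA and the array, so they check single probe sets and not the cultures. Of the 59 higher genes 32 had another set above the floor, and in 5 of them (15.6%) it was at least 1.5-fold higher too. Of the 120 lower genes 61 had one, and 13 (21.3%) went the same way. Over the bright genes within 1.5-fold, another set was past 1.5-fold in the direction of the brightest one in 11.9% of the 4670 that had one. A set of opposite sign was found in 16 of the 32 higher genes, 31 of the 61 lower genes (50.8%) and 2779 of the 4670 (59.5%).

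The lower genes with a second set past 1.5-fold the same way and none of opposite sign were ZYX, RNF26, ITGAL, NIBAN2, EPOR, LMF2, PIGV, PNPLA2, IKBKG and UCP2, and the 1 higher gene was LOC100190986 (0.76 and 1.28). RNF26, a ubiquitin ligase of the endoplasmic reticulum, stood at 398, 399, 440 and 260 (-0.76), and its other set lay at -0.70. ITGAL, the alpha chain of the leukocyte integrin LFA-1, stood at 155, 188, 221 and 134 (-0.72), with -0.61 in its other set. IKBKG, the regulatory subunit NEMO of the NF-kB kinase, stood at 518, 416, 569 and 374 (-0.61), with -0.67 in its other set. UCP2, a carrier of the inner mitochondrial membrane, stood at 760, 791, 929 and 619 (-0.59), with -0.72 in its other set. In each of these 4 genes ultrasound only was the highest and the combination the lowest array.

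PNPLA2, the lipase that opens the breakdown of stored fat, stood at 335, 371, 576 and 371 (-0.63), and its other set, which ended below the floor, was at least 1.33 lower on the log2 scale. Its signal was 371 on both arrays with Sonazoid. EPOR, the erythropoietin receptor, stood at 126, 159, 215 and 133 (-0.69), and its other sets were between -1.02 and -0.16. NIBAN2, a protein of cell junctions, stood at 150, 150, 193 and 118 (-0.71), with -0.66 in its other set. LMF2 stood at 192, 213, 300 and 188 (-0.67), with -1.47 in its other set. PIGV, a mannosyltransferase of the GPI anchor, stood at 187, 187, 218 and 140 (-0.64). Its other sets lay at -0.07 and, as a bound, at least 0.65 lower.

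MALAT1, an abundant nuclear noncoding RNA, shows how far probe sets of 1 gene can part, and was chosen after its values were seen. Its brightest set stood at 1058, 1499, 929 and 1510 (0.70), with ultrasound only the lowest array. A set that follows it stood at 457, 683, 249 and 608 (1.28). Another stood at 110, 74.8, 724 and 184, which is -1.98 and has ultrasound only as the highest array by far. In all 5 of its 12 sets above the floor were lower with added Sonazoid, from -2.12 to -1.51, and 7 were higher, from 0.42 to 1.29. No single direction can be given for MALAT1.

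Genes known to stand above control on both sonicated arrays were nearly level between the combination and ultrasound only. The 26 genes of this group were taken from earlier results of these data, so their height above control is what chose them. A choice by height on both sonicated arrays also favours a small step between those 2 arrays. JUNB, which was high with ultrasound only and not with the combination, is not among the 26. The step is therefore described for these genes only. Their median difference was 0.01, from -0.36 (TNF) to 0.73 (TRIB1), with 1 at least 1.5-fold higher and 0 lower. Of all measured genes 4.36% were as far above and 5.88% as far below, and of the bright genes 0.775% and 1.58%. Counts over 26 genes are too small to be set apart from these shares. The counts of the 26 use the brightest sets, and other sets could lie farther out. KLF2 (0.12) had its other set at -0.70, and FCAR (-0.08) had 4 other sets between -0.11 and 0.97. KLF6, a zinc finger transcription factor induced by injury, stood at 397, 394, 2852 and 2968 (0.06), and its 4 other sets were between -0.27 and -0.02. TSC22D3, the glucocorticoid-induced leucine zipper, stood at 380, 369, 2536 and 2384 (-0.09). RGS2, which turns off G protein signals, stood at 91.7, 72.3, 543 and 557 (0.04). In all 3 both sonicated arrays were far above both others.

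The AP-1 subunits showed no common step. FOS stood at 84.9, 84.8, 400.3 and 398 (-0.01), and JUN at 522, 550, 1306 and 1378 (0.08). The 3 other sets of JUN were higher, between 0.26 and 0.57. FOSB was below the floor on both arrays without ultrasound and at 360 and 307 on the others (-0.23). JUNB, at -0.997, and FOSL1, at 182, 163, 282 and 195 (-0.54), lay apart from these 3. EGR1, an immediate early zinc finger factor, lay on the other side, at 334, 359, 277 and 404 (0.54), with its 2 other sets at 0.09 and 0.30.

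Stress genes of this group were level as well. HSPA6, a stress-inducible HSP70 chaperone, stood at 97.3, 58.5, 780.0 and 844 (0.11). HMOX1, which degrades heme, stood at 758, 663, 2306 and 2550 (0.15), and PPP1R15A, which restores translation after stress, at 257, 248, 1043 and 933 (-0.16). DDIT4, an inhibitor of mTORC1, stood at 538, 550, 1700.2 and 1666 (-0.03). ANXA1, an annexin that binds injured membrane, stood at 2013, 1949, 6326 and 6005 (-0.08). The anti-apoptotic MCL1 stood at 2085, 2057, 5199 and 4762 (-0.13), and the phosphatase DUSP1 at 80.8, 73.2, 296 and 295 (-0.01). The 45S ribosomal RNA precursor RNA45SN5 stood at 296, 208, 2749 and 3181 (0.21), with 0.05 in its other set.

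TRIB1 was the 1 gene of the group past 1.5-fold. It encodes a pseudokinase that sends C/EBP alpha to degradation, and stood at 79.2, 45.7, 326 and 539 (0.73). A dim other set, below the floor on the combination array, did not follow it (-0.09). KLF4, a transcription factor of monocyte differentiation, came next at 183, 253, 636 and 838 (0.40), with 0.06 in its other set.

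**Figure D3:**
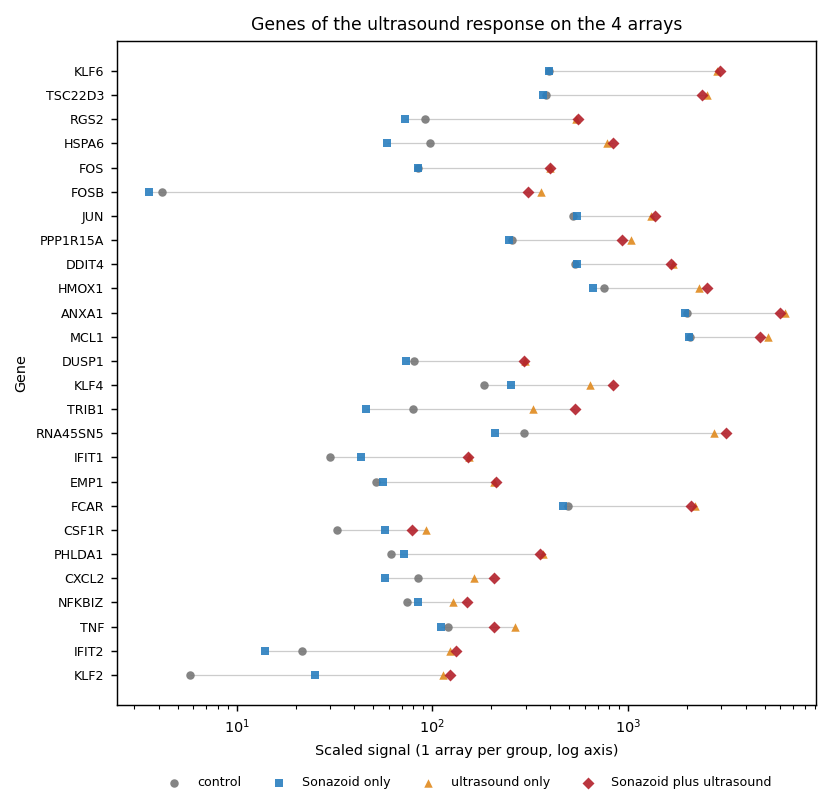
Scaled signals (x axis, log scale) on the 4 arrays, 1 per group, of 26 genes that earlier results had shown to be high after ultrasound. The points of ultrasound only and of the combination nearly cover each other, as for KLF6 at 2852 and 2968, and TRIB1 (326 and 539) has the widest step.

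Gene lists were read by their medians and by their members past 1.5-fold, beside the background of 4.36% higher and 5.88% lower over all measured genes. Of the 717 measured genes on the lists 16 (2.23%) were at least 1.5-fold higher and 29 (4.04%) lower. Both shares lay below the background, but the lists hold a larger share of bright genes than the measured genes do. Bright genes as a whole passed 1.5-fold less often (0.775% higher and 1.58% lower). The lower shares are therefore not read as a trait of the lists. Of the 34 lists other than markers of other cell types 33 had a median within 0.2 of 0. The negative medians below turned positive with the values as deposited, except those of the myeloid progenitor list (-0.04) and of the T and NK markers (-0.31).

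The myeloid progenitor list lay lowest of the lists other than markers of other cell types. Its median was -0.25 over 13 measured genes, 12 of them below 0. The median was -0.22 with quantile normalisation and -0.04 without scaling, and Sonazoid only against control had -0.13 for the same genes. SPI1, the PU.1 factor that directs myeloid fate, stood at 120, 83.0, 106 and 59.3 (-0.84), and was the 1 member at least 1.5-fold lower. CD4, which monocytes also carry, stood at 514, 423, 590 and 398 (-0.57). PRTN3, a serine protease of azurophil granules, stood at 1463, 1368, 1929 and 1428 (-0.43), and CEBPA, a factor of granulocyte and monocyte fate, at 4078, 4014, 4460 and 3378 (-0.40). CD34, the stem cell antigen, was the 1 member at least 1.5-fold higher, from below the floor to 36.9. On the list for monocyte and macrophage differentiation, 11 of the 17 measured members fell below 0, and the list median was -0.13. At 1.5-fold 3 members were higher, S100A9 (0.83, signals given above) among them, and 1 was lower. FPR1, a receptor for bacterial formyl peptides, stood at 16.2, 44.8, 24.3 and 51.0 (1.07), and was dim and near the floor. TLR4, the endotoxin receptor, stood at 265, 381, 247 and 376 (0.61), but its 3 other sets were between -0.33 and -0.06. The lectin FCN1 stood at 326, 275, 407 and 267 (-0.61), with its other set at 0.40.

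Immediate early transcription factors had a median of 0.07 over 24 genes, with 0 higher and 2 lower at 1.5-fold. These 2 were JUNB and NR4A1, an orphan nuclear receptor that stood at 33.7, 40.2, 57.4 and 18.7. NR4A1 was at least 2.41-fold lower in this dim set, while its 2 other sets were 0.29 and 0.77 higher. The short-lived signalling regulators had 2 of 24 higher, TRIB1 and SOCS3, and 1 lower, SOCS1. SOCS3, an inhibitor of cytokine receptors, was at 41.4, 54.7, 8.90 and 45.2, at least 1.9-fold higher. SOCS1, of the same family, was at 20.5, 54.0, 40.6 and 21.1, at least 1.7-fold lower. Its 2 other sets went the opposite way, by 0.24 and 0.43.

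Lists on stress were level. Of 18 heat shock and co-chaperone genes 0 were past 1.5-fold (median 0.09), and BAG3, a co-chaperone, lay farthest out at 431, 365, 477 and 674 (0.50). The 19 unfolded protein response genes (0.01), 24 NRF2 genes (-0.02) and 8 metallothionein and zinc genes (-0.10) had 0 past 1.5-fold as well. Of 20 ATF4 and amino acid genes 1 was lower (-0.04), the glutathione-degrading CHAC1, at 4.81, 29.7, 49.6 and 14.2, at least 2.08-fold. Of 23 NF-kB targets and cytokines 1 was lower (-0.00), RELB, an NF-kB subunit, at 98.4, 96.7, 204 and 121 (-0.76). Of 22 interferon-stimulated genes 3 were lower and 0 higher (-0.14). These were USP18, which removes ISG15 from proteins, at 205, 136, 175 and 82.7 (-1.08), OASL (-0.77, with another set at 0.01) and RSAD2, below the floor on the combination array and at least 1.53-fold lower.

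Lists on cell death were near 0 too. Of 22 pro-apoptotic genes (-0.01) 1 was lower, BMF, a BH3-only protein, at 70.8, 40.9, 73.0 and 48.4 (-0.59). Of 14 anti-apoptotic genes (0.02) 2 were higher. PIM2, a survival kinase, stood at 144, 127, 116 and 194 (0.74), and XIAP, an inhibitor of caspases, at 1074, 1129, 893 and 1383 (0.63), although 5 of the 6 other sets of XIAP lay below 0. Of 19 p53 targets 0 were past 1.5-fold (-0.07).

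Lists on what microbubbles touch were examined next. Of 25 membrane repair genes 2 were lower and 0 higher (median -0.06). CAPN1, a calcium-activated protease, stood at 133, 110, 238 and 125 (-0.93), but its other, gene-specific set lay 0.62 above ultrasound only. SYT7, a calcium sensor of lysosome exocytosis, was above the floor on the ultrasound-only array alone, at 49.3, and at least 2.07-fold lower. Of 20 mechanosensitive and calcium-permeable channels 2 were lower and 0 higher (-0.05). TMEM63A, a mechanically gated channel, stood at 49.1, 38.3, 67.9 and 27.5 (-1.30), where a gene-specific set gave 0.51. STIM1, the calcium sensor of the endoplasmic reticulum, stood at 57.5, 69.3, 82.0 and 52.7 (-0.64), with 0.02 in its other set. Of 18 phagocytosis and scavenger receptor genes 2 were higher and 1 lower (-0.06). MARCO, a scavenger receptor of macrophages, stood at 40.8, 52.3, 16.2 and 63.7, at least 2.67-fold higher, and ultrasound only was the low array. ITGAV, the alpha-V integrin, stood at 127, 178, 97.4 and 155 (0.67). ITGB3, one of its partners, was above the floor on 2 arrays, with ultrasound only (41.9) and Sonazoid only (24.5), and at least 1.76-fold lower.

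Of 24 endocytosis and clathrin adaptor genes 3 were lower and 0 higher (-0.12). Beside RAB5B these were EPN1, an epsin, at 46.8, 28.8, 88.8 and 34.0 (-1.39), and AMPH at 18.7, 47.1, 66.7 and 34.9 (-0.94). The other set of EPN1 lay at -0.04. PICALM, a clathrin assembly protein, stood at 1276, 1212, 1065 and 1549 (0.54), with 4 other sets between -0.75 and 0.32. Of 17 SRF and actin cytoskeleton genes 2 were lower and 1 higher, and 14 lay below 0 (-0.15). ZYX was the 1 bright gene among these 3. TAGLN, an actin-binding protein, was at least 1.93-fold lower and TPM2, a tropomyosin, at least 1.59-fold higher, both dim. Of 25 genes of phospholipid and lipid handling 1, the phospholipase PLD1, was higher (0.84, at 71.1, 95.3, 69.0 and 124), and the list median was 0.03. Of 18 cholesterol genes SREBF1 was lower and MVD, an enzyme of the mevalonate pathway, higher (0.78, at 75.2, 83.4, 59.5 and 102). The list median was -0.07.

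Housekeeping lists differed only within narrow limits. The 20 cytosolic ribosomal protein genes had a median of -0.18, with 18 below 0 and 0 past 1.5-fold. The median was -0.02 with quantile normalisation and 0.04 without scaling. Sonazoid only against control had -0.14 for the same genes. The 141 genes with mean signals above 10000 had a median of -0.13 as a whole, and -0.11 for Sonazoid only against control. ACTB stood at 20403, 18718, 22436 and 19421 and GAPDH at 15126, 13577, 16187 and 14039, each at -0.21, but at 0.0076 and 0.01 with the values as deposited. Oxidative phosphorylation (-0.07 over 28), proteasome (-0.03 over 25), splicing factor (-0.02 over 26), G1/S (-0.06 over 29) and G2/M genes (0.03 over 30) had 0 members past 1.5-fold. PLK1, a kinase of mitosis, lay farthest out in the last of these, at 665, 668, 629 and 450 (-0.48). MAPK phosphatases (-0.08 over 17), hypoxia and glycolysis (-0.07 over 25), ribosome biogenesis (-0.11 over 25) and aminoacyl-tRNA synthetase genes (-0.00 over 17) also had 0. Of 12 replication-dependent histones (0.12) 1 was lower, H3C8, at 39.7, 85.4, 190 and 108 (-0.82). Histone genes not on this list were not counted as a whole. H4C11 (0.90), H2BC12L (0.71), H2BC6 (0.70) and H2BC9 (0.62) were bright and at least 1.5-fold higher, and were chosen after their values were seen. None of them had a gene-specific set, so their signals may hold RNA of other histone genes. No histone gene was among the bright genes as far below. Of 27 lysosome and autophagy genes (-0.06) 1 was lower, the lysosomal calcium channel MCOLN1, at 162, 162, 190 and 122 (-0.65). Of 18 calcium and NFAT genes (-0.02) 1 was higher, the calcium release channel ITPR2, at 103, 96.8, 77.0 and 118 (0.61), with its 2 other sets at -0.31 and -0.16.

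Markers of other cell types were few above the floor. Of 12 T and NK markers 4 were measured (median -0.41), and the sum of their signals, nearly all NKG7, ran from 2857 to 3265 over the 4 arrays. Of 8 B cell markers 6 were measured (-0.16), of 7 erythroid and platelet markers 3 (0.03), of 8 epithelial markers 4 (0.06) and of 10 fibroblast and endothelial markers 5 (0.40). The B cell sum was lowest with the combination, at 276 against 320 to 342 on the others. BLK, a kinase of B cells, was at 61.4, 60.4, 59.4 and 4.75, at least 2.49-fold lower, and CD22 at least 1.99-fold lower. The part of such cells or of stray signal in these values was not tested.

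**Figure D4:**
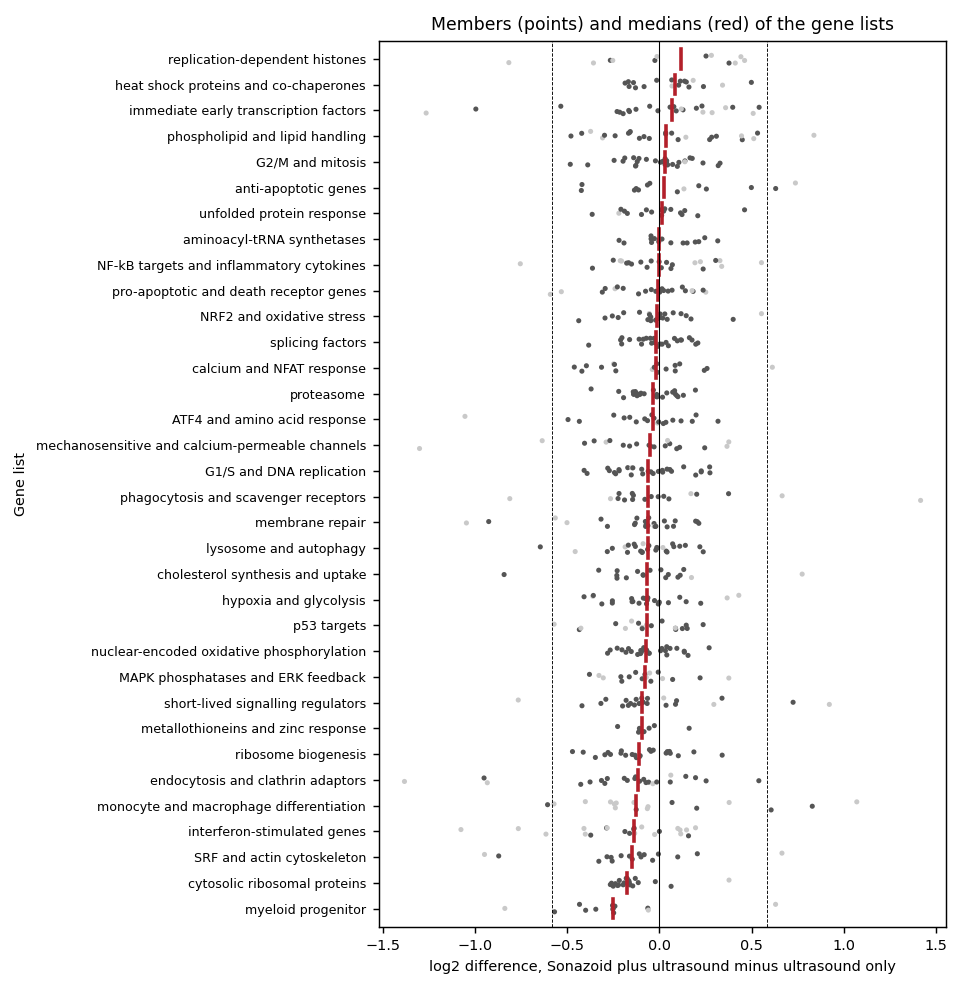
Log2 difference of the combination from ultrasound only (x axis) for the measured members of 34 gene lists (y axis), 1 point a gene, with bright genes dark and dim genes pale and the list median as a red bar. The dashed lines mark 1.5-fold; the medians run from -0.25 (myeloid progenitor) to 0.12 (replication-dependent histones) and most members past the lines are dim.

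Dim genes held most of the differences past 2-fold. The dim genes farthest above ultrasound only and above the floor on both arrays were UBBP2, a ubiquitin pseudogene (25.1 and 105, 2.06), the beta-defensin DEFB124 (27.0 and 104, 1.95) and PITX1-AS1, an antisense RNA (23.9 and 81.4, 1.77). APOL2, an apolipoprotein L (24.8 and 63.6, 1.36, with 0.91 in its other set), and ADM5 (30.9 and 78.4, 1.34) followed. The 5 farthest below were ADM2, a peptide of the calcitonin family (108 and 28.6, -1.92), the forkhead factor FOXO4 (109 and 30.2, -1.85), PHETA1, of endosomal recycling (92.8 and 27.0, -1.78), TVP23C (93.4 and 28.0, -1.74) and FAM83G (105 and 31.8, -1.72). On the lower of the 2 arrays these genes stood between 23.9 and 31.8, close to the floor.

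With 1 array at the floor only a lower bound can be given. The largest bounds upward were KREMEN2, a Wnt co-receptor (at least 3.34-fold), the zinc finger gene ZFP41 (at least 3.22-fold), CHRNA2, a nicotinic receptor subunit (at least 3.1-fold), and the ciliary motor DYNC2H1 (at least 3.03-fold). The largest downward were the zinc finger gene ZNF414 (at least 4.57-fold), LPAR2, a receptor for lysophosphatidic acid (at least 4.18-fold, with another set at -0.32), the kinase TSSK3 (at least 3.86-fold) and the vasopressin receptor AVPR1B (at least 3.54-fold). ZNF414 and LPAR2 lay between 79.6 and 117 on all arrays but the combination, whereas TSSK3 was above the floor with ultrasound only alone, at 92.0.

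Sonazoid in cells without ultrasound is the comparison nearest to this one and shares no array with it. There 26 bright genes (0.342%) were at least 1.5-fold higher and 33 (0.433%) lower than in control. MINDY3 and MAEA were past 1.5-fold higher in both comparisons, which is 3.39% of the 59 and 7.69% of the 26. CACNG4 and MXD1 were past it lower in both, which is 1.67% of the 120 and 6.06% of the 33. MAEA, a subunit of a ubiquitin ligase complex first known from macrophages, stood at 1176, 1783, 1265 and 1949 (0.62 with ultrasound, 0.60 without). Both arrays with Sonazoid were above both without it. MINDY3, a deubiquitinase, stood at 85.7, 252, 151 and 274 (0.86 and 1.56), but its other set lay at -0.08 with ultrasound. MXD1, a partner of MAX that opposes MYC, stood at 163, 96.2, 245 and 162 (-0.60 and -0.76), and it too had a set of opposite sign. With the values as deposited and under quantile normalisation another of its sets is the brightest, and its difference with ultrasound turned to 0.41 and 0.23. These genes and the next were named as the whole of each small count.

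TRIB1 was past 1.5-fold higher with ultrasound and lower without it (0.73 and -0.79). P2RY6 and SLC35C1 were lower with ultrasound and higher without it. P2RY6, a receptor for UDP on phagocytes, stood at 145, 224, 188 and 108 (-0.81 and 0.63). SLC35C1, the GDP-fucose carrier of the Golgi, stood at 124, 221, 205 and 116 (-0.83 and 0.83), with -0.23 in its other set under ultrasound. Over the 120 genes lower under ultrasound 70 were also below 0 without it, with a median of -0.06. Over the 59 higher genes 32 were above 0, with a median of 0.03. The median without ultrasound over all bright genes was 0.0003, so near equal numbers of them lay on either side of 0. Across the 7613 bright genes, which are not independent replicates, the differences had a Pearson r of 0.19 and a Spearman rho of 0.21.

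**Figure D5:**
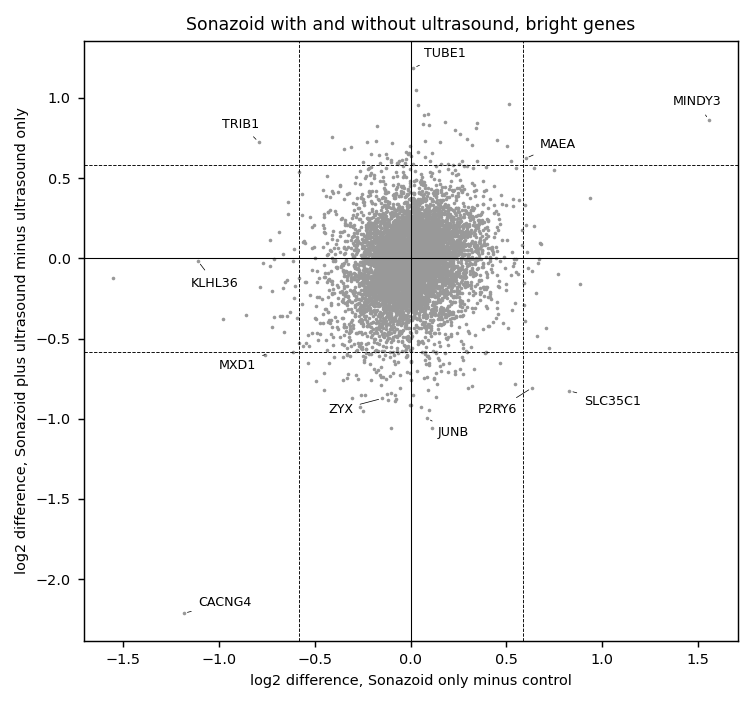
Log2 difference of Sonazoid only from control (x axis) and of Sonazoid plus ultrasound from ultrasound only (y axis) for the 7613 bright genes, 1 point a gene, from 4 arrays with none in common between the axes. Dashed lines mark 1.5-fold; 2 genes lie past it in the upper right corner (MINDY3 and MAEA), 2 in the lower left (CACNG4 and MXD1, the latter at 0.41 on the y axis with the values as deposited and 0.23 under quantile normalisation), 1 in the upper left (TRIB1) and 2 in the lower right (P2RY6 and SLC35C1).

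The departure from additivity was the difference under ultrasound minus that without it. It was past 1.5-fold upward in 128 bright genes (1.68%) and downward in 170 (2.23%). Genes above the floor on all 4 arrays were ranked if no other set had the opposite sign under ultrasound. TUBE1 and LOC100190986 (both 1.17), FBXO46 (1.13), KLHL36 (1.09) and NPL (1.02) were farthest up. FBXO46, an F-box protein, stood at 436, 291, 221 and 321, and KLHL36, a kelch protein, at 495, 229, 234 and 231. Control was the high array for both. The brightest set of KLHL36 had almost no step under ultrasound (-0.02), but its 2 other sets lay at -1.09 and -0.49. The departure of KLHL36 was -0.47 as the mean of its probe sets. SLC35C1 (-1.66), P2RY6 (-1.44), AP1G2 (-1.33), ZNF213 and REEP6 (both -1.12) were farthest down. Genes that had a set of opposite sign lay farther out than the last of these, 3 upward (TRIB1 at 1.52, HMBOX1 at 1.43 and FCF1 at 1.03) and 5 downward (USF2 at -1.38, TRIM58 at -1.28, ZNF142 at -1.17, CCDC82 and DNAJB12 both at -1.14). AP1G2, a subunit of a clathrin adaptor, stood at 88.2, 129, 298 and 173, and was high on both sonicated arrays.

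Promoter windows were compared as a description of letters only. Of the 120 lower bright genes 102 (85.0%) had a RefSeq window of 300 bases. Their median GC content was 67.7%, with quartiles of 63.3% and 74.5%, against 65.3% (59.0% and 71.7%) over 6453 bright genes with a window. A GC box stood in 78.4% of them, in 72.1% of the bright genes and in 44.6% of all 27305 windows. TATAAA, on either strand, stood in 2.94%, 5.07% and 11.95%. Of the 59 higher genes only 46 (78.0%) had a window, under the 80% set as the minimum, so that check is void for them.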

How the data were processed

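RNA of 4 U937 cultures was measured on 4 Affymetrix arrays, 1 per group, with groups taken from the treatment label. Per probe set, a linear intensity was deposited. The summarisation algorithm, detection calls and any scaling by the authors were not given in the sources used here. RNA, per the labels' protocols, was DNase-treated and labelled with a one-cycle kit that amplifies from the 3' end.

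Trimmed means (2% off each end) differed 1.16-fold, above the 1.1-fold set as the limit, and a single factor brought each array to their common trimmed mean. Values below 23.8, the median of all scaled values, were raised to it before log2 was taken. Where 1 side is at this floor the difference is a bound ("at least"). Of 54675 probe sets, 41097 had 1 symbol in the platform annotation, 1801 several and 11777 none; 41043 symbols were updated through the RefSeq table of GRCh38.p14, and 62 control sets were left out. A gene is its brightest set by mean signal over 4 arrays.

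With 1 array per group no test was made. Named genes follow a rule: the 15 bright genes farthest each way with no other above-floor set of opposite sign, 5 dim genes and 4 bounds each way, up to 10 with a second set the same way, 5 departures each way, up to 4 per gene list, ACTB and GAPDH. The members, rule and lists were chosen with earlier results of these data known. Alternatives were the values as deposited, quantile normalisation, no floor with a pseudocount of 16, a floor at the 75th percentile, gene-specific sets, the mean of sets and a bright limit at the 90th percentile. Scripts used Python 3.11.15, numpy 2.4.6, pandas 2.3.3, scipy 1.17.1 and matplotlib 3.10.9, and were tested on simulated data.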

Additional observations from a re-analysis of the deposited data

Results flagged for a closer look

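Among control probe sets and bright probe sets without a single symbol, 4 are given first that were at least 2-fold above ultrasound only and highest with the combination. A control probe set of the array, AFFX-M27830_5_at, stood at 358, 566, 2005 and 16854 in the order control, Sonazoid only, ultrasound only and combination, a log2 difference of 3.07. The companion sets to the middle and the 3' end of the same sequence stood at 1258, 2468, 4677 and 5060 (0.11) and at 34.8, 33.5, 71.9 and 31.8 (-1.18). The 18 hybridisation controls had a median of -0.10 and the 24 poly-A controls one of 0.26. Of probe sets without a single symbol, 201936_s_at stood at 314, 230, 139 and 373 (1.43), 208762_at at 187, 177, 107 and 218 (1.03), and 215434_x_at, annotated to several NBPF genes, at 346, 360, 204 and 409 (1.00). A further 5 without a single symbol were at least 2-fold lower. These were 221634_at at 288, 266, 307 and 112 (-1.45), 1554344_s_at at 140, 133, 226 and 106 (-1.09), 219920_s_at at 139, 132, 292 and 139 (-1.07), 217027_x_at at 393, 367, 515 and 248 (-1.05), and 231212_x_at at 128, 163, 298 and 148 (-1.01). Ultrasound only was the highest array in each. In all, 1434 bright probe sets had no single symbol, of which 21 were at least 1.5-fold higher and 28 lower. What moved these sets was not tested.

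For 3 bright genes added Sonazoid went opposite ways with and without ultrasound by at least 1.5-fold each. The departure was -1.66 for SLC35C1, -1.44 for P2RY6 and 1.52 for TRIB1, whose dim other set lay at -0.09 under ultrasound. The difference was not tested, since each side is 1 array.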

How the results depend on the processing

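With 1 array a group and a spread that no replicate measures, these values describe 4 cultures. Dim genes carry most of the differences past 2-fold, and the balance of higher against lower genes follows the scaling. Of the summary counts under each alternative 45 stayed within 1.5 times the value given and 29 did not.

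With the values as deposited, 221 measured genes were 2-fold higher and 85 lower (92 and 152 in the report), 281 bright genes 1.5-fold higher and 28 lower (59 and 120), and 15 bright genes 2-fold higher and 1 lower (2 and 3). A second probe set then went the same way in 62 higher and 1 lower genes (5 and 13), 38 list members were higher (16), and the departure was upward in 243 and downward in 92 genes (128 and 170). Without a floor 349 measured genes were 2-fold higher and 419 lower, 1 bright gene each way was at 2-fold, a second set followed in 7 lower genes, and 35 list members were higher. With the stricter floor 2 measured genes were 2-fold higher and 0 lower, 0 bright genes were 2-fold lower, a second set followed in 1 higher and 3 lower genes, and 4 list members were higher and 5 lower; fewer genes pass this floor. With gene-specific sets a second set followed in 3 lower genes. Above the 90th percentile 11 bright genes were 1.5-fold higher, 7 lower, and 0 past 2-fold each way.

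All 15 named higher and 15 named lower bright genes stayed past 1.5-fold with the values as deposited, under quantile normalisation and without a floor. The stricter floor kept 13 higher and 11 lower, gene-specific sets 12 and 14, and the mean of sets 12 and 13. Of single values past 1.5-fold, those that turned sign were CAPN1 (0.62), NR4A1 (0.77) and TMEM63A (0.51) with gene-specific sets, MXD1 with the values as deposited (0.41) and under quantile normalisation (0.23), and the departure of KLHL36 (-0.47) as the mean of sets, where other sets of the gene replace or join the brightest one. The departure of MINDY3 turned to 0.12 with the stricter floor, which lies above its control signal. Counting smaller values and list medians too, 39 turned with the values as deposited, ACTB and GAPDH among them, 18 as the mean of sets, 14 with gene-specific sets, 11 with the stricter floor, 7 under quantile normalisation and 2 without a floor. Of the other single values 1508 kept within 1.5-fold of the value given and 34 did not. No paired analysis was possible because each group has 1 array.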
